A study of Mus musculus with 6 samples.

Results

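The genes encoded by mitochondrial DNA (mtDNA) were examined in MNRR1-knockout (KO) cells and their parent line, TKO (triple knockout), a mouse line of ovarian cancer. They were taken as every gene of the count table that GRCm38 places on chromosome M, which gave 35 of 49315 genes, made up of 13 protein genes and 22 tRNA genes. The annotation also has the rRNA genes mt-Rnr1 and mt-Rnr2, which were not analysed here. There were 3 RNA-seq libraries of the KO and 3 of the wild type (WT), that is, of TKO cells with MNRR1 intact. Both groups thus carry the triple knockout, whose genes the labels do not name. The KO libraries bear a single clone name, and a difference between genotypes cannot be told apart from a difference between that clone and its parent line. The labels do not say that replicates were separate cultures, and a p-value therefore measures no more than how these samples scatter, which may be technical. Per the labels, total RNA went into NEBNext Ultra II RNA libraries, and the sources used here do not say whether polyadenylated RNA was selected.

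Mitochondrial DNA is a small circular genome that is transcribed from both of its strands into long precursor RNAs. The heavy-strand transcript carries the rRNAs, most tRNAs and all protein genes but mt-Nd6, which comes from the light-strand transcript with the remaining tRNAs. Nucleases cut out the tRNAs that punctuate the precursors, and this frees the mRNAs and rRNAs between them. The 13 proteins are all core parts of oxidative phosphorylation, 7 in complex I (NADH dehydrogenase), 1 in complex III, 3 in complex IV (cytochrome c oxidase) and 2 in ATP synthase, and each complex is completed by subunits encoded in the nucleus. MNRR1, the product of the nuclear gene Chchd2, is a protein of mitochondria and nucleus that is known to bind cytochrome c oxidase and to regulate transcription.

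Nuclear copies of mtDNA can bear on the levels of the genes that they match. BLAST of the 37 annotated mtDNA genes against the GRCm38 nuclear transcripts found 7 pseudogene models on chromosome 1, between positions 24611535 and 24616197 on the minus strand, that copied mtDNA in its own gene order. They covered bases 6390 to 11042 of mtDNA, from the last part of mt-Co1 to the first part of mt-Nd4. The copies of mt-Co2, mt-Atp6, mt-Co3, mt-Nd4l and mt-Nd4 (Gm28661, Gm10925, Gm28437, Gm10222 and Gm28439) were 100% identical over their aligned length. The copy of mt-Nd3, Gm28438, was 99.7% identical and that of mt-Co1, Gm29216, was 99.8% identical. The spacing between the copied genes was the same on both chromosomes, except for 73 bases on mtDNA against 74 on chromosome 1 between mt-Nd3 and mt-Nd4l, so mt-Atp8 and 5 tRNA genes also lie inside the copied stretch. A second, less similar copy on chromosome 2 held mt-Co1 (Gm13340, 97.6% identical), mt-Co2 (Gm13341, 95.9%) and 510 bases of mt-Nd2 (Gm13339, 96.7%).

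Stretches of 100 bases from 3 of these pairs show how alike the genes and copies are, with the bases at which each pair differs in capitals. The mt-Nd3 stretch (chrM:9459-9558, plus strand) differs from Gm28438 (chr1:24613020-24613119, minus strand) at 1 base, which is the single difference between them over 345 aligned bases. The mt-Co2 stretch (chrM:7303-7402, plus strand) and Gm28661 (chr1:24615176-24615275, minus strand) do not differ. The mt-Co1 stretch (chrM:6123-6222, plus strand) differs from Gm13340 (chr2:22588753-22588852, minus strand) at 3 bases, of 37 over the whole gene. All were read from the GENCODE M21 transcripts of GRCm38.
mt-Nd3: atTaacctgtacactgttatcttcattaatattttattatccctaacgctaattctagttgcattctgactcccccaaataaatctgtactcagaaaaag
Gm28438: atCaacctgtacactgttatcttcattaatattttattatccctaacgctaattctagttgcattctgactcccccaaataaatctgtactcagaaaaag
mt-Co2: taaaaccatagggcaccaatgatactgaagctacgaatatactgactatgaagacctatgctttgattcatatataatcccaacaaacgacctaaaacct
Gm28661: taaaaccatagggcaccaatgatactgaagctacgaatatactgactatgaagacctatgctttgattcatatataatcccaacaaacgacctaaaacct
mt-Co1: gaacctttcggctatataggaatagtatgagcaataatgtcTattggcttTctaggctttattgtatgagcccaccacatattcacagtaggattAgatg
Gm13340: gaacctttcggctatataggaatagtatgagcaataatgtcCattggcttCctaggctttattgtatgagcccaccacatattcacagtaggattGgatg

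Genes inside the copied stretch had the lowest levels among the protein genes. The 5 protein genes outside it (mt-Nd1, mt-Nd2, mt-Nd5, mt-Nd6 and mt-Cytb) had from 1663 to 5037 CPM per kb in WT libraries, where CPM is a gene's count relative to its library's size, with sizes scaled by edgeR's TMM method, and per kb means divided by gene length. The 6 protein genes wholly inside it (mt-Co2, mt-Atp8, mt-Atp6, mt-Co3, mt-Nd3 and mt-Nd4l) had from 2.53 to 73.2 CPM per kb, and the ranges did not overlap. In raw terms the 6 genes had between 18 and 1165 counts in a library and the other 7 had at least 20459. mt-Co1 has 31.3% of its length in the stretch and stood at 5619 CPM per kb, while mt-Nd4 has 63.6% of its length there and stood at 1030 CPM per kb. Dividing the CPM of the whole gene by only its bases outside the stretch gave 2828 CPM per kb for mt-Nd4 and 8175 for mt-Co1. These values take all counted reads to lie outside the stretch, which was not tested. Of windows of 100 bases in mt-Co2, mt-Atp6 and mt-Co3, between 99.5% and 99.9% occur unchanged in a nuclear transcript.

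The chromosome 1 copies held few counts themselves, from 9 to 169 per gene and library and from 302 to 562 in all per library, at most 0.0596% of the mtDNA counts. All 16 copies in the table together held at most 0.0716% of the mtDNA counts. Adding so few counts could hardly move the ratio of the mtDNA share in KO to that in WT, which stayed 0.857. That sum cannot show reads that were not counted. How reads that fit several places were treated is not stated in the sources at hand, and the part of that step in these levels was not tested. As that treatment is not known, levels of the 6 protein genes inside the stretch are uncertain. Their KO and WT values describe only the reads that were counted. For mt-Atp8 the copy was placed by spacing alone. Most of the gene falls in the 233 bases between the mt-Co2 and mt-Atp6 models of chromosome 1, and only transcripts were searched. That 0% of its windows of 100 bases occur unchanged in a nuclear transcript thus cannot show how alike gene and copy are. Of the 9 copies with enough counts for the test of KO against WT described below, 0 were called by edgeR's quasi-likelihood test, DESeq2 or limma voom, and at an unadjusted p under 0.05 the numbers were 1, 0 and 1.

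**Figure D1:**
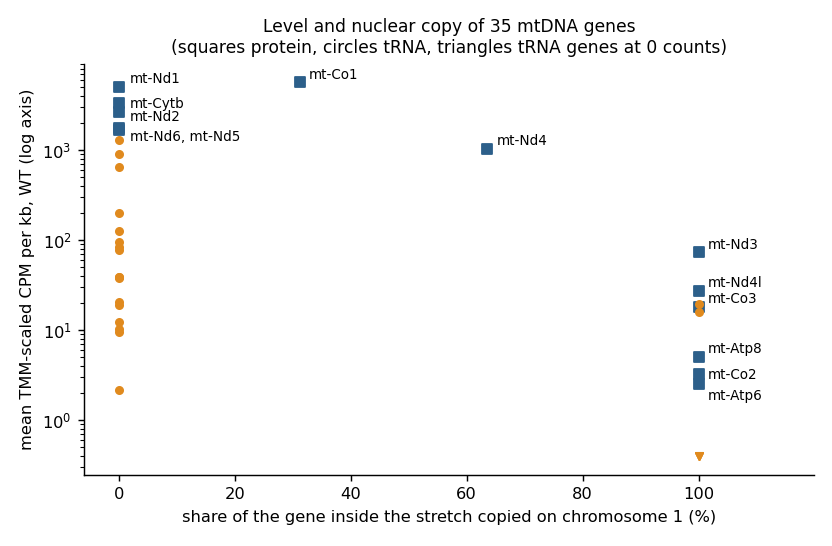
Mean TMM-scaled CPM per kb in WT libraries (log axis) against the share of each of the 35 genes that lies inside the stretch copied on chromosome 1. Protein genes are squares and tRNA genes circles, with triangles at the foot for the 3 tRNA genes at 0 counts. The 6 protein genes at 100% lie below 74 CPM per kb and those at 0% at 1663 or more.

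As a check of the labels, Chchd2 had 581, 717 and 658 counts over the KO libraries and 12835, 11824 and 13506 over the WT libraries, a fall of 95.1% (adjusted p = 8.56e-12). Library totals ran from 33226463 to 40983999 counts. Genes were tested across the whole table with edgeR's quasi-likelihood test, with Benjamini-Hochberg (BH) adjustment over 16033 genes that passed a filter on low counts, and a gene was called at an adjusted p under 0.05. By that rule 27.8% of all tested genes were lower in KO and 27.8% higher, and the median log2 change of all tested genes was 0.01. For groups that did not overlap, the shares were 31.9% lower and 32.1% higher. The shares of genes called lower and higher were 20.5% and 36.0% with scaling by library totals, 27.3% and 26.0% in DESeq2, 27.8% and 27.5% in limma voom, and 27.9% and 27.5% with the replicate number as a block. Values of a gene are given in the order of replicates 1, 2 and 3.

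mtDNA genes took a smaller share of the library in every KO library. The share was 2.03%, 2.18% and 2.13% over the KO libraries and 2.32%, 2.54% and 2.53% over the WT libraries. The groups did not overlap, and the KO mean of 2.11% ± 0.0788 (SD, n = 3) was 0.857 times the WT mean of 2.47% ± 0.124 (SD, n = 3). As a sum over chosen genes the share was given no p-value. In bulk RNA, less mtDNA-encoded RNA per cell and more RNA of other genes cannot be told apart.

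The complexes did not contribute equally. Complex I genes took 0.930%, 1.04% and 0.972% of counts in KO libraries and 1.16%, 1.28% and 1.28% in WT libraries, with no overlap and a ratio of means of 0.792. mt-Cytb, the complex III gene, took 0.315% to 0.334% in KO and 0.343% to 0.387% in WT libraries, again with no overlap and a ratio of 0.882. Complex IV genes, nearly all of whose counts are mt-Co1, took 0.767%, 0.791% and 0.812% over the KO libraries and 0.796%, 0.863% and 0.842% over the WT libraries, and these values overlapped, at a ratio of 0.948. The ATP synthase genes mt-Atp6 and mt-Atp8 both lie in the copied stretch and together had 58 to 131 counts per library, too few to set beside the others.

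**Figure D2:**
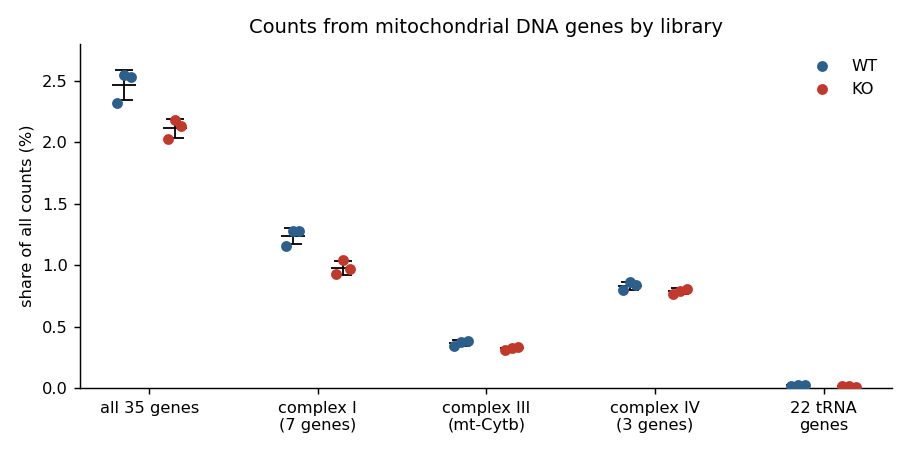
Share of all counts (%) from mtDNA genes in each library, for all 35 genes and by complex, with the tRNA genes at the right. Points are libraries and black marks the mean with its SD. KO and WT points separate for all genes, complex I and complex III, and overlap for complex IV.

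Per gene, 9 of the 13 protein genes fell in KO and 0 rose, beside 27.8% lower and 27.8% higher among all genes tested, and all 13 fitted changes were below 0. Neither DESeq2 nor limma voom called an mtDNA gene higher, and 0 were higher at an unadjusted p under 0.05 in any of the 3 tools. The median log2 change of the 13 was -0.45. Of the 7 genes with ample counts all 7 fell, by 0.20 to 0.52 on the log2 scale, and for each of them no KO value reached the WT range, as was so, lower in KO, for 31.9% of all genes tested. DESeq2 and limma voom each called 10 protein genes lower.

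Complex I genes fell the most among the well-counted genes. mt-Nd1 (ENSMUSG00000064341, chrM:2751-3707, plus strand), which encodes the subunit where ubiquinone enters the complex, was at 3182, 3838 and 3340 CPM over the KO libraries and 4602, 4906 and 4954 CPM over the WT libraries. Every KO value was under every WT value, and the gene, the third in rank by mean level among all genes in WT libraries, fell by 28.4% (log2 change -0.48, SE 0.07, adjusted p = 2.67e-04, edgeR's quasi-likelihood test). mt-Nd2 (chrM:3914-4951), a subunit of the proton-pumping membrane arm, was at 1886, 2207 and 1876 CPM over the KO libraries and 2602, 2758 and 2798 CPM over the WT libraries, and fell by 26.8% (log2 change -0.45, SE 0.07). KO replicate 2 was the highest KO library for both genes.

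mt-Nd5 (chrM:11742-13565), the longest mtDNA protein gene and another pump subunit of the membrane arm, was at 2089, 2323 and 2252 CPM over the KO libraries and 2833, 3190 and 3074 CPM over the WT libraries, a fall of 26.7% (log2 change -0.45, SE 0.07). mt-Nd4 (chrM:10167-11544), the third of these pump subunits, was at 1088, 1175 and 1086 CPM over the KO libraries and 1355, 1485 and 1420 CPM over the WT libraries, a fall of 21.4% (log2 change -0.35, SE 0.06). The groups stood apart for both genes, by more than the spread within either. mt-Nd4 shares 63.6% of its length with the chromosome 1 copy and 7 bases with mt-Nd4l.

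mt-Nd6 (ENSMUSG00000064368, chrM:13552-14070, minus strand) encodes the complex I subunit read from the light-strand transcript. It was at 586, 685 and 629 CPM over the KO libraries and 844, 954 and 921 CPM over the WT libraries, and fell by 30.1% (log2 change -0.52, SE 0.07, adjusted p = 1.06e-04), the greatest fall among the 7 well-counted genes. Its end overlaps mt-Nd5 by 14 bases on the opposite strand. The sources at hand do not give the strand setting of the counting, so reads of mt-Nd6 and reads of heavy-strand RNA across the same bases cannot be told apart.

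mt-Cytb (ENSMUSG00000064370, chrM:14145-15288, plus strand), cytochrome b of complex III, was at 2996, 3199 and 3164 CPM over the KO libraries and 3620, 3924 and 3990 CPM over the WT libraries. No KO value reached the WT range, and the gene fell by 18.9% (log2 change -0.30, SE 0.06, adjusted p = 0.00143). mt-Co1 (ENSMUSG00000064351, chrM:5328-6872, plus strand), the catalytic core of cytochrome c oxidase, had the highest mean level of all genes in both genotypes. It was at 7286, 7758 and 7675 CPM over the KO libraries and 8390, 8975 and 8681 CPM over the WT libraries. It fell by 12.8% (log2 change -0.20, SE 0.06, adjusted p = 0.0140), and this call was lost with scaling by library totals (adjusted p = 0.192), without KO replicate 1 (0.0814) and without WT replicate 2 (0.0778).

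The 6 genes in the copied stretch gave scattered values. mt-Co3, a core subunit of cytochrome c oxidase, was at 9.16, 9.80 and 6.99 CPM over the KO libraries and 10.3, 18.6 and 14.0 CPM over the WT libraries, and was called lower (log2 change -0.72, SE 0.21, adjusted p = 0.0152), a call lost without KO replicate 2 (0.0789) or KO replicate 3 (0.0705). mt-Nd3, a small complex I subunit, was at 14.0, 18.8 and 11.3 CPM over the KO libraries and 19.1, 34.4 and 22.9 CPM over the WT libraries, and was called lower (log2 change -0.79, SE 0.26, adjusted p = 0.0329). Leaving out any KO library (0.0986, 0.0816 and 0.187 for replicates 1, 2 and 3) or the filter (0.182) ended that call. WT replicate 2 was the highest library for both genes.

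mt-Nd4l, the shortest complex I gene of mtDNA, was at 2.94 to 6.49 CPM in KO libraries and 6.61 to 10.9 CPM in WT libraries. It missed the threshold (log2 change -0.69, SE 0.29, adjusted p = 0.0735), which it passed with no filter (0.00182), in DESeq2 (0.0128) and in limma voom (0.0496). mt-Co2, the subunit that takes electrons from cytochrome c, was at 1.52 to 2.60 CPM over the KO libraries and 1.83 to 2.47 CPM over the WT libraries (log2 change -0.10, SE 0.23, adjusted p = 0.737). The log2 change of mt-Co2 turned to 0.085 without KO replicate 1. With library totals it was 0.023, which relative to the median of all genes was -0.10, as with TMM. mt-Atp6 and mt-Atp8, which overlap by 43 bases and encode subunits of the membrane part of ATP synthase, had log2 changes of -0.20 (SE 0.24) and -0.35 (SE 0.34), with overlapping groups and adjusted p of 0.516 and 0.406 in edgeR's quasi-likelihood test.

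**Figure D3:**
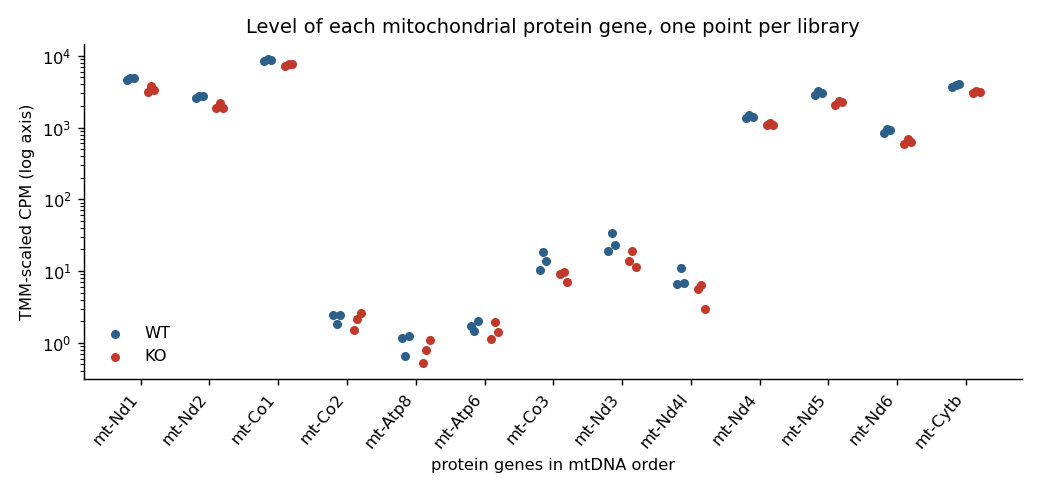
TMM-scaled CPM (log axis) of the 13 mtDNA protein genes in mtDNA order, with 1 point per library. The 7 well-counted genes lie between 586 and 8975 CPM with KO points under WT points, and the 6 genes of the copied stretch lie below 35 CPM.

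Ratios of genes within a library do not depend on scaling between libraries, and they set mt-Co1 apart from its neighbours. mt-Co1 made up 38.1%, 36.6% and 38.3% of the mtDNA protein counts over the KO libraries and 34.5%, 34.2% and 33.5% over the WT libraries, with no overlap. Counts of mt-Nd1 were 43.7%, 49.5% and 43.5% of those of mt-Co1 over the KO libraries and 54.8%, 54.7% and 57.1% over the WT libraries. The corresponding ratio of mt-Nd6 to mt-Co1 had a mean of 8.35% ± 0.416 in KO and 10.4% ± 0.324 in WT libraries (SD, n = 3 each). Each of the 6 other well-counted genes had a lower ratio to mt-Co1 in every KO library than in any WT library, with KO means relative to WT means from 0.801 for mt-Nd6 to 0.930 for mt-Cytb. The ratios to mt-Co1 were chosen after the values were seen. For each of the 6, p was 0.1 in an exact permutation test, two-sided, the smallest that 3 against 3 libraries allow, and 0.114 after BH adjustment over 8 ratios.

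mt-Nd6 was set against the heavy-strand protein genes in the same way. As the strand setting of the counting is not known, counts of mt-Nd6 need not all come from light-strand RNA. Counts of mt-Nd6 were 3.16%, 3.33% and 3.24% of the counts of the 12 heavy-strand protein genes over the KO libraries and 3.60%, 3.77% and 3.69% over the WT libraries. The groups did not overlap, and p was 0.1, again the smallest possible in the exact permutation test (0.114 after BH adjustment over 8 ratios). The KO mean was 0.880 times the WT mean, and 0.930 times when mt-Co1 was left out of the heavy-strand counts. Among the single well-counted heavy-strand genes, mt-Nd1 had a log2 change of -0.48 beside -0.52 for mt-Nd6, each with an SE of 0.07.

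The tRNA genes are short, and counts of a mature tRNA cannot be told apart here from counts of an uncut precursor. Of the 22 genes, 3 had 0 counts in all 6 libraries (mt-Ts1, mt-Td and mt-Tk, for serine, aspartate and lysine), all inside the copied stretch. A count of 0 allows up to 3 counts, or between 0.0732 and 0.0903 CPM before TMM scaling, and covers counting error only. mt-Ti, for isoleucine, had 0 to 7 counts per library and was below the filter, which left 18 tRNA genes tested. The 3 with the most counts were mt-Tl1 (chrM:2676-2750, plus strand, for leucine, between mt-Rnr2 and mt-Nd1), mt-Tn (chrM:5089-5159, minus strand, for asparagine) and mt-Tp (chrM:15356-15422, minus strand, for proline). Their gene sequences on the coding strand, from the same GENCODE transcripts and with no base marked, are shown for their length.
mt-Tl1: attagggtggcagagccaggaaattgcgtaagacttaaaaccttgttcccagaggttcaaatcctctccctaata
mt-Tn: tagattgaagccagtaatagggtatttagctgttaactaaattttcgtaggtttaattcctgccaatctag
mt-Tp: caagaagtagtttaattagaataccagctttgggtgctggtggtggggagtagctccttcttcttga

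Of the 18 tRNA genes tested, 5 fell (mt-Tf, mt-Tl1, mt-Ty, mt-Te and mt-Tp) and 0 rose, beside 27.8% called lower among all genes tested. All 18 fitted changes were below 0, with a median log2 change of -0.65. The spread among KO libraries was wide. All tRNA genes together took 0.0161%, 0.0224% and 0.0118% of counts over the KO libraries and 0.0231%, 0.0261% and 0.0256% over the WT libraries. KO replicate 2 was near the lowest WT library, and KO replicate 3 was the lowest of all. Relative to mtDNA protein counts, tRNA counts were 0.800%, 1.04% and 0.555% over the KO libraries and 1.00%, 1.04% and 1.02% over the WT libraries, which overlapped (exact two-sided permutation test, p = 0.4, before and after BH adjustment over 8 ratios).

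The number of tRNA genes called changed most without KO replicate 2. Without it 16 tRNA genes were called lower, against 2 without KO replicate 1 and 3 without KO replicate 3. Leaving out a WT library gave 2 to 5 (2 without WT replicate 3 and 3 without WT replicate 2). Shares of all genes called in these fits are not given here. Of 90 nuclear genes serving mtDNA, described below, 39 were called lower with all libraries. The number was 49 without KO replicate 2, 26 without KO replicate 1 and 30 without KO replicate 3. mt-Tl1 was at 52.5, 77.5 and 35.7 CPM over the KO libraries and 96.5, 101 and 94.1 CPM over the WT libraries, with no overlap (log2 change -0.81, SE 0.27, adjusted p = 0.0496), and it missed the threshold without KO replicate 1 (0.128), without any of the WT libraries (0.0871, 0.0798 and 0.0671), with no filter (0.161) and with 3 other scalings (0.052 to 0.059).

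mt-Te, for glutamate and next to mt-Nd6 on the light-strand transcript, was at 3.41, 3.81 and 2.55 CPM over the KO libraries and 4.78, 6.43 and 8.54 CPM over the WT libraries. It fell by 50.6% (log2 change -1.02, SE 0.22, adjusted p = 0.00263), the greatest fall of the 14 mtDNA genes called. mt-Tp was at 34.0, 38.5 and 31.5 CPM over the KO libraries and 39.8, 46.0 and 45.2 CPM over the WT libraries and fell by 20.6% (log2 change -0.33, SE 0.09, adjusted p = 0.00672). Both calls held without any 1 library.

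mt-Tf, for phenylalanine and the first gene of the heavy-strand transcript, was at 3.12, 4.74 and 2.91 CPM over the KO libraries and 4.32, 6.61 and 6.35 CPM over the WT libraries, which overlapped (log2 change -0.68, SE 0.22, adjusted p = 0.0210). Its call was lost without KO replicate 1 (0.0858), KO replicate 3 (0.0550), WT replicate 2 (0.0855) or WT replicate 3 (0.0765). mt-Ty, for tyrosine, was at 1.53 ± 0.592 CPM over the KO libraries and 2.60 ± 0.350 CPM over the WT libraries (± SD, n = 3). It had a log2 change of -0.76 (SE 0.27, adjusted p = 0.0300), and its call was lost with library totals (0.0582) and without KO replicate 1 (0.0779), KO replicate 3 (0.0799), WT replicate 1 (0.0823) or WT replicate 3 (0.0998). The 13 tRNA genes that missed the threshold had log2 changes from -1.28 (mt-Tq, SE 0.52) to -0.24 (mt-Ts2, SE 0.40). mt-Tn, second in tRNA counts, was among them at 39.2 ± 16.8 CPM over the KO libraries and 64.7 ± 4.32 CPM over the WT libraries (± SD, n = 3), with no overlap (adjusted p = 0.105, edgeR's quasi-likelihood test).

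**Figure D4:**
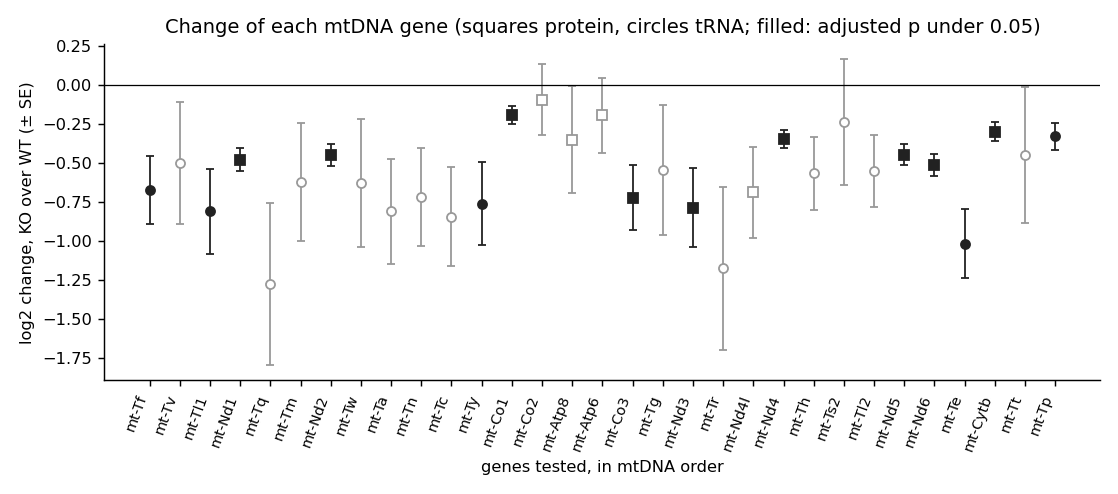
Log2 change of KO over WT with its SE for the 31 mtDNA genes tested, in the order of the genome. Squares are protein genes and circles tRNA genes, filled where the adjusted p was under 0.05. All 31 points lie below 0, and the wide errors belong to tRNA genes and to the genes of the copied stretch.

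Along the heavy-strand transcript the well-counted genes showed no steady trend with distance from its start. In the order of transcription the log2 changes were -0.48 for mt-Nd1, -0.45 for mt-Nd2, -0.20 for mt-Co1, -0.35 for mt-Nd4, -0.45 for mt-Nd5 and -0.30 for mt-Cytb. The least change was thus in the third of these 6 genes, with genes of greater change on both sides of it.

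Nuclear genes that copy, transcribe, process and translate mtDNA were followed beside its transcripts. Of 90 tested genes in 6 lists, 39 fell and 17 rose in KO, with a median log2 change of -0.16, where 27.8% of all tested genes were called in each direction. With scaling by library totals, which moved the median of all genes to 0.13 and the calls over all genes from 4463 higher and 4462 lower to 5771 higher and 3294 lower, the same lists gave 19 lower and 21 higher, beside 20.5% lower and 36.0% higher over all genes. Relative to the median of all genes the median of the 90 was -0.17 under both scalings, so the values given below with library totals carry the shift of all genes. Under library totals the median of the 13 mtDNA protein genes was -0.33, with 8 called lower and 0 higher, 9 falling to 8 through mt-Co1.

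Genes that tail, stabilise and degrade mitochondrial RNA fell in 9 of 12 cases (75.0%) and rose in 1 (8.3%). Over all genes tested 27.8% were called in each direction. The median log2 change of the list was -0.30 (-0.18 with library totals). Pde12, a nuclease that trims tails of mitochondrial RNA, fell from 55.9 ± 1.77 to 36.96 ± 5.32 CPM (log2 change -0.60). Grsf1, a binding protein of mitochondrial RNA granules, was at -0.39, Trnt1, which adds the CCA end to tRNAs, at -0.35, and Mtpap, the poly(A) polymerase of mitochondria, at -0.35, all called lower. Lrpprc, which holds mitochondrial mRNAs in a stable complex with Slirp, fell from 233 ± 7.93 to 207 ± 12.7 CPM (log2 change -0.17, adjusted p = 0.0271). The Lrpprc call was lost with library totals (0.410) or upper quartiles (0.0916) and without KO replicate 1 (0.0997), KO replicate 3 (0.0692), WT replicate 1 (0.111) or WT replicate 2 (0.0902). Slirp itself was at -0.07 (adjusted p = 0.391), and at 0.05 with library totals.

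Genes for cutting the precursors had 7 of 14 lower and 2 higher, with a median of -0.19 (-0.07 with library totals). Elac2, the nuclease that cuts at the 3′ end of tRNAs, fell from 103 ± 3.57 to 66.6 ± 7.99 CPM (log2 change -0.63, adjusted p = 6.33e-05). Fastkd3, a member of the FASTK family of mitochondrial RNA proteins, fell from 30.2 ± 1.05 to 16.8 ± 0.196 CPM (log2 change -0.85). Ptcd2, a pentatricopeptide repeat protein linked to the mt-Cytb mRNA, was at -0.63 and called lower, and Rpusd3, a pseudouridine synthase family member, rose by 0.66 on the log2 scale.

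The transcription list had 4 of 10 genes lower and 3 higher, with a median of -0.12 that became 0.00 with library totals. Polrmt, the mitochondrial RNA polymerase, rose from 29.9 ± 0.394 to 34.7 ± 2.71 CPM (log2 change 0.21, adjusted p = 0.0234), a call that did not survive leaving out KO replicate 3 (0.0862) or any WT library (0.0897, 0.0694 and 0.0649 without replicates 1, 2 and 3). Tfam, which packages mtDNA and activates its promoters, fell from 87.4 ± 2.18 to 75.7 ± 7.79 CPM (log2 change -0.21, adjusted p = 0.0306). The Tfam call was lost with upper quartiles (0.0856) or library totals (0.273) and without KO replicate 1 (0.104), KO replicate 3 (0.0827) or any WT library (0.110, 0.0694 and 0.0619 without replicates 1, 2 and 3). Tfb2m, the other initiation factor, was at -0.03 (adjusted p = 0.745, with the sign turned under library totals, upper quartiles or without WT replicate 1), and the elongation factor Tefm was at -0.17 (adjusted p = 0.286, or 0.0218 without KO replicate 2).

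Mrpl12, a protein of the mitochondrial ribosome reported to bind the polymerase, fell from 118 ± 4.63 to 75.7 ± 12.0 CPM (log2 change -0.64). The termination factor family members Mterf2 and Mterf4 rose by 0.66 and 0.35 on the log2 scale. Their relative Mterf1a was at -0.67 (adjusted p = 0.0297), with a call lost under library totals (0.0613) and without KO replicate 1 (0.114), KO replicate 3 (0.0566), WT replicate 1 (0.104) or WT replicate 2 (0.0942).

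The replication list had 6 of 16 lower and 4 higher, with a median of -0.15 (-0.03 with library totals). Rrm2b, a ribonucleotide reductase subunit that supplies nucleotides for mtDNA, fell from 35.4 ± 2.20 to 24.0 ± 1.27 CPM (log2 change -0.56), whereas the thymidine kinase of mitochondria, Tk2, rose by 0.53 and Primpol, a primase-polymerase, by 0.51. Dguok, the deoxyguanosine kinase, rose by 0.35, a call lost without KO replicate 3 (0.0607) or WT replicate 1 (0.0759).

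Genes that modify mitochondrial rRNA and tRNA had 7 of 23 lower (30.4%) and 6 higher (26.1%), with a median of -0.08 (0.04 with library totals). Both shares were near the 27.8% called in each direction over all genes tested. Nsun2, a cytosine methyltransferase of tRNAs inside and outside mitochondria, fell from 375 ± 9.48 to 205 ± 40.6 CPM (log2 change -0.87), and Pus1, a pseudouridine synthase, was at -0.58 and called lower. Mettl15, a methyltransferase of mitochondrial rRNA, rose by 0.57. Trmt61b, which methylates adenines of mitochondrial RNA, was at -0.64, with its call lost without WT replicate 1 (0.0582).

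Translation factor genes had 6 of 15 lower and 1 higher, with a median of -0.11 (0.01 with library totals). Noa1, a GTPase of mitochondrial ribosome assembly, fell from 39.3 ± 1.58 to 27.7 ± 4.23 CPM (log2 change -0.51). The recycling factor Gfm2 was at -0.28, the initiator tRNA formylase Mtfmt at -0.27 and the elongation factor Tufm at -0.26, all called lower with TMM but not with library totals (adjusted p of 0.0588, 0.0872 and 0.0580).

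**Figure D5:**
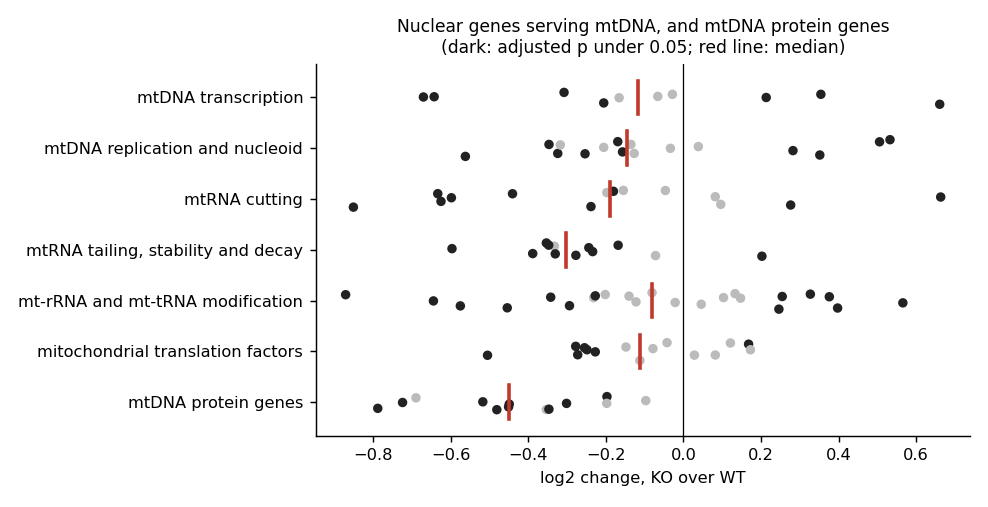
Log2 change of KO over WT for nuclear genes of 6 lists that serve mtDNA, and for the 13 mtDNA protein genes in the last row. Each point is a gene, dark where the adjusted p was under 0.05, and the red line is the median of the row, -0.45 for the mtDNA protein genes and from -0.30 to -0.08 for the lists.

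Nuclear partners of the same complexes are given for scale, beside 27.8% lower and 27.8% higher over all genes tested. With library totals those shares over all genes were 20.5% lower and 36.0% higher. Of 36 nuclear complex I subunit genes tested, 4 fell and 5 rose, and the median log2 change was 0.03, beside 6 lower and 0 higher of 7 mtDNA complex I genes with a median of -0.48. Among the nuclear ones, Ndufv3 rose by 0.64 and Ndufs6 was called lower at -0.36. For complex III, 3 of 9 nuclear genes were lower and 0 higher, with the iron-sulfur subunit Uqcrfs1 at -0.55 beside mt-Cytb at -0.30, and with library totals the numbers were 2 and 2. For complex IV, 4 of 11 nuclear genes were lower and 0 higher with a median of -0.07, and Cox7c was at -0.30 beside mt-Co1 at -0.20. With library totals 1 of the 11 was lower and 2 higher, the calls of Cox6a1 (0.0863), Cox5a (0.501) and Cox7a2 (0.369) being lost. Cox5a and Cox7a2 also lost theirs without KO replicate 1 (0.0891 and 0.0795), WT replicate 1 (0.113 and 0.0610) or WT replicate 2 (0.0740 and 0.0649) and with upper quartiles (0.105 and 0.0663), and Cox5a without KO replicate 3 (0.0773). For ATP synthase, 2 of 15 nuclear genes were lower and 3 higher, with the alpha subunit Atp5a1 rising by 0.27. Under library totals these became 0 lower and 5 higher, with adjusted p of 0.120 for Atp5g3 and 0.468 for Atp5g1, and the Atp5g1 call was also lost with upper quartiles (0.121) and without any 1 library other than KO replicate 2 (0.0542 to 0.153). For complex I, library totals gave 2 nuclear genes lower (5.6%) and 14 higher (38.9%), the latter near the 36.0% of all genes. The difference between the mtDNA and nuclear genes of a complex was not tested.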

How the data were processed

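The authors deposited 1 table of unnormalized whole-number counts by Ensembl gene ID. Builds and tools named by the submitters' processing notes, in no stated role, are GRCm38 (mm10), STAR 2.5.2b, Subread 1.5.2, Trimmomatic 0.36, bcl2fastq 2.17 and DESeq2. Not given in the sources used here are the authors' annotation release, strandedness of counting and treatment of multi-mapping reads. Symbols and coordinates came from GENCODE M21, to which 49056 IDs matched and 259 did not. The 6 libraries' counts went into edgeR 4.0.16 under R 4.3.3 (filterByExpr, minimum count 10, TMM, robust quasi-likelihood fit, genotype as the only term). The fit was tested beforehand on simulated data in which far fewer genes changed than were called here. The SE was taken from the fitted change and its F statistic. Nuclear copies were sought with BLAST 2.17.0 at 90% identity over 60 bases or more. Exact permutation tests used scipy 1.17.1. Alternatives were DESeq2 1.42.0, limma 3.58.1 voom, other scalings and filters, a block and omission of each library. Column names give both groups the same set numbers, and the labels do not say that a set marks a shared batch. Over all genes tested, the deviations of same-numbered libraries correlated at -0.06, 0.05 and 0.03, so the numbers were not taken as pairs. These correlations do not settle pairing for the mtDNA genes alone. All mtDNA protein genes were named, and some tRNA genes that missed the threshold were given only by their range. From each list up to 4 called genes of 1 CPM or more with the greatest change could be named, and Polrmt, Tfam, Tfb2m, Tefm, Lrpprc and Slirp in any case. The genes and lists were chosen with earlier results of these data known. A planned ratio of rRNA to protein counts was not computed, as the rRNA genes were not analysed here.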

Additional observations from a re-analysis of the deposited data

How the results depend on the processing

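Against 14 mtDNA genes called lower and 0 higher, an adjusted p under 0.01 gave 8 lower, and leaving out 1 library gave 9 (without KO replicate 1) to 23 (without KO replicate 2). Scaling, filter and test gave 11 to 19 and the replicate block 21 (with mt-Nd4l, at an adjusted p of 0.00313), and no setting called an mtDNA gene higher. Of the 31 genes, 11 kept direction and call in every setting in which they were tested. Called lower throughout were mt-Nd1, mt-Nd2, mt-Nd4, mt-Nd5, mt-Nd6, mt-Cytb, mt-Te and mt-Tp, whereas mt-Atp6, mt-Atp8 and mt-Tt were called in none. For the 5 tRNA genes called lower, library totals gave 3, no filter 8, limma voom 9, non-robust dispersions 8, the block 11, the 0.01 threshold 2 and omission of a library 2 to 16. Log2 changes that reversed were those of mt-Co2 (0.023 with library totals, and from -0.28 without KO replicate 3 to 0.085 without KO replicate 1) and mt-Ts2 (from -0.60 without KO replicate 2 to 0.12 without KO replicate 3, with 0.076 without WT replicate 2). Of nuclear genes serving mtDNA, 39 lower and 17 higher became 19 lower with library totals (which raised the median of all genes from 0.01 to 0.13) and 25 and 11 at 0.01, with 26 to 49 lower and 11 to 16 higher when a library was left out. The cause of these moves was not tested. Shares over all genes are given only for the main fit, library totals, DESeq2, limma voom and the block. Numbers called under the 0.01 threshold, other scalings and filters, non-robust dispersions or with 1 library left out stand without such shares. The share ratio of 0.857 ran from 0.833 to 0.874, and same-numbered libraries were not paired. mt-Tq had 2 to 27 counts per library, whereas mt-Tl1 and mt-Tn had 933 to 3737 per library but scattered among KO libraries.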
